A study of Mus musculus with 9 samples.

Results

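The 9 genes described here encode the switch that commits a cell to divide and the proteins that hold it off: the D-type cyclins Ccnd1, Ccnd2 and Ccnd3, the kinase Cdk6, and the kinase inhibitors Cdkn1a (p21), Cdkn1b (p27), Cdkn1c (p57), Cdkn2a (p16Ink4a and p19Arf) and Cdkn2c (p18Ink4c). They were picked by symbol as 9 of the 31053 genes listed in the count tables, with earlier results of these data known. They were followed through neuron types and glia in single-nucleus RNA sequencing of pooled cortex and hippocampus from 9 male C57BL/6 mice, 1 library per mouse. Young mice were 5 months old and aged mice 19 months old at takedown. Per the study's methods the aged animals came from a National Institute on Aging colony and the young ones from Jackson Laboratories, so supplier and age cannot be told apart. Every mouse had received an AAV-PHP.V1 vector with the endothelial sCLDN5 promoter through the retro-orbital sinus 8 weeks earlier. The vector carried EGFP alone in 3 young and 3 aged mice (young AAV-EGFP and aged AAV-EGFP), and EGFP joined by P2A to B3GNT3, a glycosyltransferase that lengthens the O-linked sugar chains of mucin-type proteins, in 3 aged mice (aged AAV-B3GNT3). The promoter directs the transgene to the endothelium, and young mice with B3GNT3 were not among the groups. Nuclei had been sorted as Hoechst-positive singlets. Comparing aged with young AAV-EGFP mice asks what changed with age, and comparing aged AAV-B3GNT3 with aged AAV-EGFP mice asks what changed with the enzyme. Both comparisons use the same aged AAV-EGFP libraries.

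D-type cyclins bind Cdk4 or Cdk6, and the pair phosphorylates the retinoblastoma protein, which releases E2F transcription factors to switch on genes for DNA replication. The Cip/Kip inhibitors (Cdkn1a, Cdkn1b, Cdkn1c) bind cyclin and kinase together, and the INK4 inhibitors (the p16Ink4a product of Cdkn2a, and Cdkn2c) bind Cdk4 and Cdk6. Neurons no longer divide, oligodendrocyte precursors and microglia keep the ability to, and Cdkn1a and Cdkn2a are widely used as marks of senescence, a lasting exit from the cycle in which a cell stays alive.

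After filters, 70310 nuclei remained, with 5774 to 9282 nuclei and 36094045 to 60560556 unique molecular identifiers (UMIs) per library. Nuclei were clustered and named from marker genes as excitatory neurons (20679 nuclei), inhibitory neurons (7962), astrocytes (8430), oligodendrocytes (20365), oligodendrocyte precursors (2753), microglia (2222) and brain endothelial cells (723). None of the markers of these 7 classes was at 0 in its own class, and the names stand for clusters with the markers of that cell type. A finer division gave 22 named types with at least 10 nuclei in every library, among them pericytes (943 nuclei) and striatal neurons of the direct and indirect pathways, which lie outside the labelled tissue. In the broad classes 6233 nuclei, and in the finer division 8790, carried markers of several classes or of none and stayed unnamed. Any pair of libraries shared 7 to 37 cell barcodes. In brain endothelial cells, B3gnt3 had 6, 3 and 1 UMIs in the young libraries, 0 in each aged AAV-EGFP library and 0, 2 and 4 with AAV-B3GNT3, and since the transgene may escape these counts, they do not check the labels.

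Levels are given in CPM, the UMIs of a gene scaled to the same total UMIs in every class and library. Values of different genes are not compared. Excitatory neurons held 61.9% and inhibitory neurons 20.2% of Ccnd2 UMIs. Astrocytes held 35.8% and microglia 24.8% of Ccnd3 UMIs. These shares follow class size as well as level. Oligodendrocytes held 34.4% of Cdkn1a and 35.9% of Cdkn1b UMIs.

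**Figure D1:**
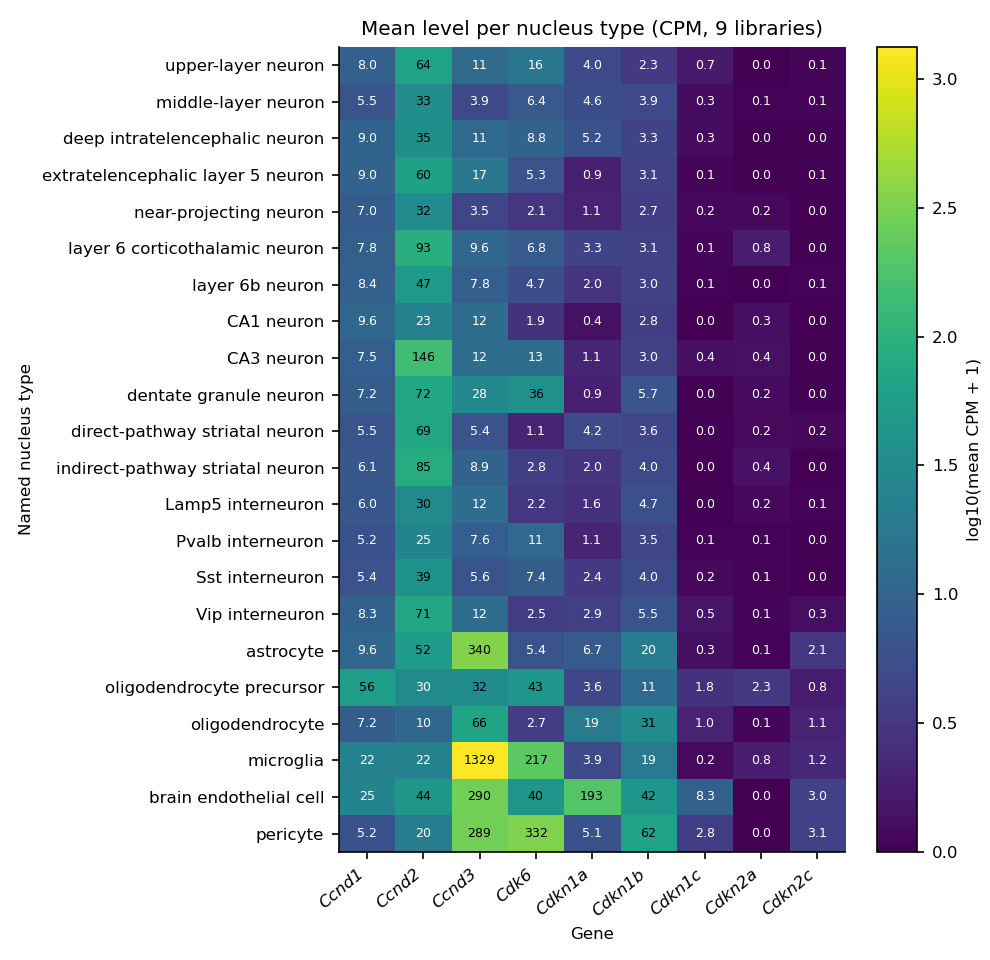
Mean level of the 9 genes (columns) in the 22 named nucleus types (rows), as CPM averaged over the 9 libraries, printed in each cell; colour is log10(mean CPM + 1). Ccnd3 stands highest in microglia (1329 CPM), Cdk6 in pericytes and microglia, Cdkn1a in brain endothelial cells, Ccnd1 in oligodendrocyte precursors and Ccnd2 in CA3 neurons, while Cdkn1c, Cdkn2a and Cdkn2c stay under 10 CPM.

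Ccnd1 (chr7:144929931-144939925, minus strand, GRCm38) had its highest level in oligodendrocyte precursors, at 53.3 ± 20.7 CPM (mean ± SD over 9 libraries), above the next class in 8 of 9 libraries. Brain endothelial cells (24.6 ± 23.7 CPM) and microglia (22.3 ± 8.24 CPM) came next and did not differ beyond their spread. Astrocytes, neurons, oligodendrocytes and pericytes lay between 5.20 and 9.65 CPM.

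Ccnd2 (chr6:127125162-127152193, minus strand) had similar levels in inhibitory neurons (55.8 ± 17.7 CPM), excitatory neurons (54.2 ± 17.8 CPM) and astrocytes (52.4 ± 14.2 CPM). It was lowest in oligodendrocytes, at 10.2 ± 4.31 CPM. Among finer types CA3 neurons led with 146 ± 35.9 CPM, above the next type in all 9 libraries, followed by layer 6 corticothalamic neurons (93.3 ± 33.2 CPM), striatal neurons of the indirect pathway (85.3 ± 27.6 CPM) and dentate granule neurons (71.7 ± 36.4 CPM). CA1 neurons, the neighbours of CA3 in the hippocampus, had 22.7 ± 7.74 CPM. Over the 9 libraries, each of the leading types overlapped the next.

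Ccnd3 (chr17:47505051-47599691, plus strand) reached 1329 ± 520.5 CPM in microglia, where 82.2% of nuclei held a UMI of it. Astrocytes (339.9 ± 124 CPM), brain endothelial cells (290.2 ± 115 CPM) and pericytes (289 ± 125 CPM) did not differ beyond their spread, and oligodendrocytes (65.5 ± 15.2 CPM) were below pericytes in 9 of 9 libraries. Oligodendrocyte precursors (31.0 ± 11.6 CPM) did not overlap excitatory neurons (10.8 ± 3.85 CPM), and inhibitory neurons were lowest, with 5.23 ± 2.05 CPM.

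Cdk6 (chr5:3341485-3531008, plus strand), the kinase partner, was highest in pericytes (332 ± 160 CPM) and microglia (217 ± 84.2 CPM), which overlapped each other. Microglia in turn did not overlap brain endothelial cells (40.3 ± 21.3 CPM), and these were level with oligodendrocyte precursors (40.3 ± 11.3 CPM). Among neurons, dentate granule neurons had the highest level, at 36.3 ± 13.7 CPM.

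Of the Cip/Kip inhibitors, Cdkn1a (chr17:29090976-29100727, plus strand) was highest in brain endothelial cells, at 193 ± 139 CPM, with oligodendrocytes next at 18.7 ± 14.4 CPM. In brain endothelial cells 25.3% of nuclei held a Cdkn1a UMI at a median of 1879 UMIs per nucleus, against 0.81% in microglia at a median of 1706.5. Cdkn1b (chr6:134920401-134925513, plus strand), known to restrain division of oligodendrocyte precursors, was highest in pericytes (61.9 ± 18.9 CPM), brain endothelial cells (42.3 ± 8.46 CPM) and oligodendrocytes (30.7 ± 3.28 CPM). Oligodendrocyte precursors had 11.1 ± 1.45 CPM, and neurons had 3.07 to 4.23 CPM without overlapping them. Cdkn1c (chr7:143458339-143461050, minus strand) was scarce, with 247 UMIs in all, and was highest among tested types in brain endothelial cells (8.29 ± 10.4 CPM).

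The INK4 genes were near the detection limit. Cdkn2c (chr4:109660876-109667189, minus strand) had 179 UMIs, and its mean level was at most 3.08 CPM in any class. Cdkn2a (chr4:89274471-89294653, minus strand) had 88 UMIs. Genes on the opposite strand overlap Ccnd2 (Gm43126 over 994 bases and 9330179D12Rik over 2805), Cdk6 (Gm17590 over 8013 and Gm42435 over 1448), Ccnd3 (Bysl over 361) and Cdkn1c (Gm44732 over 892). Such genes also overlap Ccnd1 (LTO1 over 1771) and Cdkn1a (AC167363.2 over 1046), but were not found by these names among the genes counted. How the counting treated strand is not given in the sources used here, so reads of overlapping genes cannot be told apart with certainty.

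The genes whose levels over the 22 types ran most closely with a member were taken from 13308 genes by Pearson's r of log2(CPM + 1). For Ccnd3 these were Dido1, Fmo5 and Trip6 (r = 0.948 to 0.959). Cdkn1b ran with Epm2aip1, Rbm27 and Pon2 (0.967 to 0.971), and Cdkn1a with Slc2a1, the glucose transporter of brain endothelium, Gm13748 and 1810037I17Rik (0.912 to 0.939). Cdk6 ran with Cnot2, Adap2 and Adap2os (0.853 to 0.870), Ccnd1 with Gm20388, Ankrd11 and Csnk2a2 (0.841 to 0.895), and Ccnd2 less closely with Gm48623, 9630028H03Rik and 4930545L23Rik (0.699 to 0.738). These values describe types measured in the same 9 libraries, with the same depth shared by all genes of a type. Cdkn1c, Cdkn2a and Cdkn2c were under 10 CPM in every type and were left out.

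For comparisons between groups, counts were summed per library and class and tested with edgeR's quasi-likelihood test across all genes, and the values shown are CPM with TMM scaling. In such sums, fewer nuclei of a subtype and less RNA per nucleus cannot be told apart. Of 63 combinations of a member and a broad class, 37 had enough counts, covering 6 members, and Cdkn1c, Cdkn2a and Cdkn2c passed the count filter in no broad class. With age, 3 of the 37 passed an adjusted p of 0.05, near the background of 9.34% of all gene and class tests. With AAV-B3GNT3, 3 of 37 passed (background 2.82%), and all 3 were Ccnd2. Between aged AAV-B3GNT3 and young AAV-EGFP mice, edgeR called 0 of 37 (background 1.65%), with 5 at an unadjusted p under 0.05, and DESeq2 also called 0. In the 22 finer types, 83 of 198 combinations were tested. There, 10 passed with age (background 5.55%) and 6 with AAV-B3GNT3 (background 1.68%), and the latter were again all Ccnd2. Because the members were chosen with earlier results of these data known, these shares are a description and not a test of enrichment.

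Ccnd2 was lower in aged than in young AAV-EGFP mice in excitatory neurons and oligodendrocytes, and higher in aged AAV-B3GNT3 than in aged AAV-EGFP mice in excitatory neurons, inhibitory neurons and oligodendrocytes. In excitatory neurons, young AAV-EGFP libraries had 61.1, 61.2 and 68.9 CPM. The aged AAV-EGFP libraries had 34.5, 26.2 and 39.4 CPM. Aged AAV-B3GNT3 libraries had 63.7, 74.3 and 55.3 CPM. Every aged AAV-EGFP library thus lay below all 6 others, and the other groups overlapped. The level was 1.91-fold lower with age (log2 fold change −0.93, SE 0.15, adjusted p = 0.0062, edgeR) and 1.93-fold higher with AAV-B3GNT3 (0.95, SE 0.15, adjusted p = 0.030), in a class in which 14.2% of genes were called with age and 2.24% with AAV-B3GNT3. The age call stood in 18 of 18 other settings. The call with AAV-B3GNT3 was lost without aged AAV-EGFP replicate 2 (log2 fold change 0.80, adjusted p = 0.16), aged AAV-B3GNT3 replicate 1 (0.97, 0.11) or 2 (0.83, 0.12), or young AAV-EGFP replicate 3 (0.95, 0.054).

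In inhibitory neurons, Ccnd2 had 63.5, 61.0 and 48.9 CPM in young AAV-EGFP libraries. It had 43.2, 32.8 and 41.2 CPM in aged AAV-EGFP libraries. Values in aged AAV-B3GNT3 libraries were 76.6, 76.8 and 54.3 CPM. All aged AAV-EGFP libraries were again below the other 6. The difference with AAV-B3GNT3 was 1.77-fold (log2 fold change 0.83, SE 0.16, adjusted p = 0.047, background 0.579%), and the difference with age missed the threshold (−0.57, SE 0.16, adjusted p = 0.060). The call was lost without aged AAV-EGFP replicate 2 (0.70, adjusted p = 0.22) or 3 (0.87, 0.089), aged AAV-B3GNT3 replicate 1 (0.75, 0.24) or 2 (0.75, 0.23), or young AAV-EGFP replicate 3 (0.83, 0.051). The age difference passed without aged AAV-EGFP replicate 1 (−0.65, adjusted p = 0.043).

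Marker genes of other cells were present in the same neurons. All 6 oligodendrocyte markers were detected in excitatory neurons, where they summed to 168 to 195 CPM in young, 97.1 to 146 CPM in aged AAV-EGFP and 167 to 197 CPM in aged AAV-B3GNT3 libraries, lowest in the group in which Ccnd2 was lowest. The 6 astrocyte markers, all detected there too, summed to 416 to 569, 358 to 453 and 351 to 485 CPM in the same order of groups, which overlapped. The part of such RNA in the Ccnd2 change was not tested beyond removing a set share. With 10% of each sum removed as free RNA, the changes of Ccnd2 in excitatory neurons were −0.95 with age, at an adjusted p of 0.0093, and 0.97 between the aged groups, at an adjusted p of 0.045. In inhibitory neurons all 6 astrocyte markers were detected, and summed to 109 to 177, 63.4 to 86.9 and 96.9 to 163 CPM in the same order of groups. The 6 oligodendrocyte markers summed there to 130.3 to 193, 117 to 135 and 159 to 163 CPM, apart between the aged groups only, and the 6 excitatory neuron markers to 35.7 to 43.7, 16.1 to 31.0 and 28.1 to 35.6 CPM, with the aged groups overlapping. There the AAV-B3GNT3 change of Ccnd2 was 0.82 (adjusted p = 0.078) with free RNA removed.

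**Figure D2:**
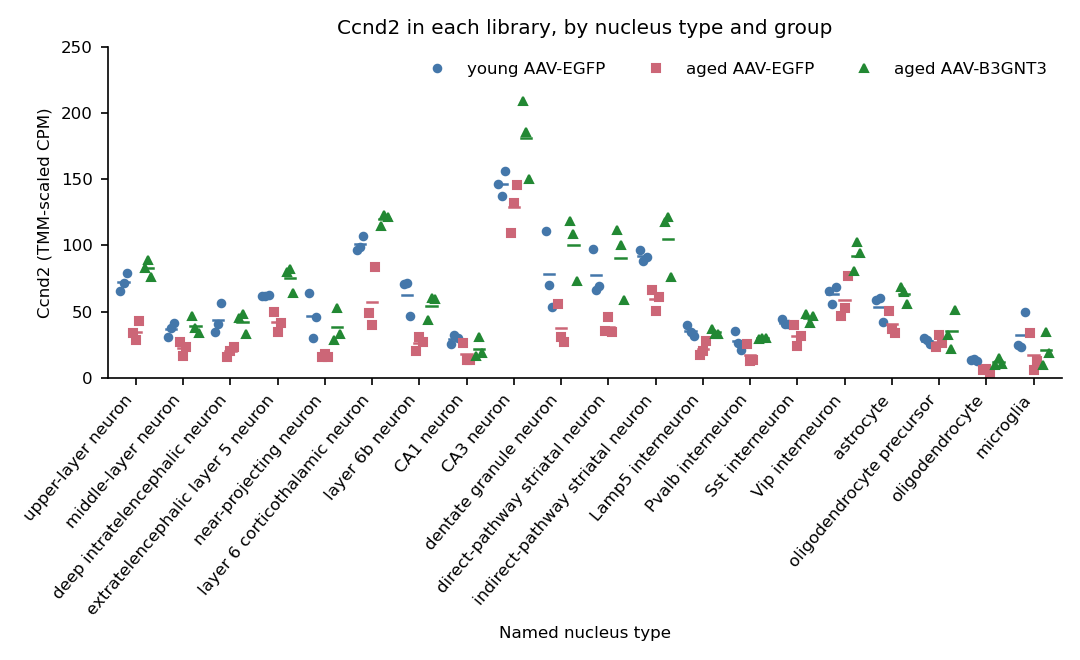
Ccnd2 in TMM-scaled CPM (vertical axis) in each of the 3 libraries of a group, for the 20 nucleus types in which it could be tested; short horizontal lines are group means. Aged AAV-EGFP libraries (squares) lie below the young ones (circles) without overlap in 12 of the 20 types, and aged AAV-B3GNT3 libraries (triangles) lie above the aged AAV-EGFP ones without overlap in 17 of 20. The types share these libraries and are not replicates.

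Across finer types, Ccnd2 fell with age in 7 of the 20 types with enough counts: upper-layer, middle-layer, deep intratelencephalic, layer 6 corticothalamic, layer 6b and direct-pathway striatal neurons, and oligodendrocytes. Upper-layer neurons had 65.7, 71.6 and 79.0 CPM in young, 33.5, 28.2 and 43.0 in aged AAV-EGFP and 82.8, 88.8 and 76.1 in aged AAV-B3GNT3 libraries. Their aged AAV-EGFP libraries stood clear of all others, with a log2 fold change of −1.04 with age (SE 0.15, adjusted p = 5.2e-04) and 1.23 with AAV-B3GNT3 (SE 0.15, adjusted p = 0.0028). Both calls stood in 17 of 17 other settings. In layer 6b neurons, which remain from the earliest cortical layer, Ccnd2 went from 70.7, 71.3 and 46.4 CPM to 20.4, 30.8 and 27.0 CPM (−1.25, SE 0.24, adjusted p = 0.018), a call lost without aged AAV-EGFP replicate 3 (−1.26, 0.065) or young AAV-EGFP replicate 1 (−1.16, 0.064) or 2 (−1.15, 0.064). The call in middle-layer neurons (−0.74) was lost without aged AAV-EGFP replicate 2 (−0.55, 0.13) or 3 (−0.79, 0.063) or young AAV-EGFP replicate 2 (−0.72, 0.081) or 3 (−0.64, 0.13). That in layer 6 corticothalamic neurons (−0.80) was lost without aged AAV-EGFP replicate 2 (−0.57, 0.093) or young AAV-EGFP replicate 3 (−0.76, 0.074), and the change was −1.21 without aged AAV-EGFP replicate 3. In deep intratelencephalic neurons the fall (−1.12, SE 0.21, adjusted p = 0.0063) stood in 17 of 17 other settings. Young and aged AAV-EGFP libraries did not overlap, downward, in 12 of the 20 types, against 12.1% of all gene and type tests, and were apart in the other direction in 0. The types share the same libraries and are not replicates, so this count is a description.

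With AAV-B3GNT3, Ccnd2 rose in 6 types: upper-layer, deep intratelencephalic, extratelencephalic layer 5, layer 6 corticothalamic and direct-pathway striatal neurons, and oligodendrocytes. Layer 6 corticothalamic neurons had 96.9, 98.6 and 107 CPM in young, 48.7, 39.7 and 83.8 in aged AAV-EGFP and 115, 123 and 121 in aged AAV-B3GNT3 libraries, so that all 3 groups were apart (AAV-B3GNT3 1.05, SE 0.20, adjusted p = 0.021). That call was lost without aged AAV-EGFP replicate 2 (0.82, 0.13) or aged AAV-B3GNT3 replicate 1 (1.09, 0.10) or 2 (1.04, 0.13). Direct-pathway striatal neurons had 97.2, 66.5 and 69.3 CPM in young, 35.6, 45.9 and 34.2 in aged AAV-EGFP and 111, 100.3 and 58.8 in aged AAV-B3GNT3 libraries (age −1.01, adjusted p = 0.038; AAV-B3GNT3 1.23, adjusted p = 0.040). The age call there was lost without any 1 of aged AAV-EGFP replicates 2 and 3 or the young libraries (adjusted p = 0.067 to 0.16), and the AAV-B3GNT3 call without aged AAV-EGFP replicate 2 or 3, aged AAV-B3GNT3 replicate 1 or 2 or young AAV-EGFP replicate 3 (adjusted p = 0.079 to 0.25). Deep intratelencephalic neurons (1.05) lost the call without aged AAV-EGFP replicate 2 (1.06, 0.15) or aged AAV-B3GNT3 replicate 1 (1.01, 0.16) or 2 (0.97, 0.16). Extratelencephalic layer 5 neurons (0.86, adjusted p = 0.048) lost it in 9 of 17 other settings, with adjusted p up to 0.29 without aged AAV-EGFP replicate 2. Without overlap, aged AAV-B3GNT3 libraries lay above aged AAV-EGFP ones in 17 of 20 types, against 9.4% of all gene and type tests, and below them in 0. Here too the types share the same libraries, and a shift of a whole library would recur in many of them.

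Other types did not pass. Dentate granule neurons, which are still formed in the adult hippocampus, had 111, 70.05 and 53.4 CPM in young, 55.9, 30.4 and 27.0 in aged AAV-EGFP and 118, 109 and 73.0 in aged AAV-B3GNT3 libraries. Their spread within groups was wide (age −0.96, SE 0.30, adjusted p = 0.14; AAV-B3GNT3 1.28, SE 0.30, adjusted p = 0.19). CA3 neurons, with the highest level, changed by −0.19 with age (SE 0.19, adjusted p = 0.76). Vip interneurons changed by −0.10 with age (SE 0.20, adjusted p = 0.86) and by 0.66 with AAV-B3GNT3 (SE 0.19, adjusted p = 0.12). In oligodendrocyte precursors the difference with age was −0.03 (SE 0.28, adjusted p = 0.98).

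In oligodendrocytes Ccnd2 was low, at 13.2, 14.4 and 12.998 CPM in young libraries. It was lower still in aged AAV-EGFP libraries, at 6.20, 6.72 and 3.21 CPM. Aged AAV-B3GNT3 libraries had 9.21, 15.6 and 10.6 CPM, and again lay above every aged AAV-EGFP library. The decrease with age was 2.56-fold (log2 fold change −1.36, SE 0.29, adjusted p = 0.0082, background 20.8% of genes) and the increase with AAV-B3GNT3 was 2.23-fold (1.16, SE 0.29, adjusted p = 0.032, background 7.94%). Neuronal transcripts were present in these nuclei: all 6 excitatory neuron markers were detected, and summed to 136 to 144 CPM in young, 72.7 to 133 CPM in aged AAV-EGFP and 115 to 116 CPM in aged AAV-B3GNT3 oligodendrocytes. The young libraries lay above the aged AAV-EGFP libraries, and the aged AAV-B3GNT3 libraries lay within the aged AAV-EGFP range. Neither call stood with 10% of each sum removed as free RNA (−1.85, adjusted p = 0.099, and 1.48, adjusted p = 0.22) or in classes from finer clusters (−1.05, adjusted p = 0.17, and 0.48, adjusted p = 0.64). The AAV-B3GNT3 call was also lost without aged AAV-EGFP replicate 2 (1.36, 0.060) or 3 (0.86, 0.099) or aged AAV-B3GNT3 replicate 2 (0.94, 0.14).

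Astrocytes had 58.5, 59.97 and 41.9 CPM of Ccnd2 in young, 50.6, 36.7 and 33.7 in aged AAV-EGFP and 68.6, 64.6 and 56.1 in aged AAV-B3GNT3 libraries. Both differences missed the threshold (−0.43, adjusted p = 0.15, and 0.66, adjusted p = 0.054), and both passed without aged AAV-EGFP replicate 1 (−0.62, 0.036, and 0.85, 0.020). The AAV-B3GNT3 difference also passed with no filter on low counts (0.69, 0.0069), with the replicate block (0.65, 0.033) and without young AAV-EGFP replicate 3 (0.66, 0.049). All 6 oligodendrocyte markers were detected in these astrocytes, and summed to 353 to 477 CPM in young, 230 to 325 in aged AAV-EGFP and 348 to 365 in aged AAV-B3GNT3 libraries, with the aged AAV-EGFP libraries below the other 6. The 6 excitatory neuron markers, also all detected, summed to 94.5 to 102.3, 54.8 to 80.7 and 75.1 to 86.5 CPM, so that the young libraries lay above both aged groups, which overlapped. With 10% of each sum removed as free RNA the Ccnd2 differences were −0.41 (adjusted p = 0.22) and 0.66 (adjusted p = 0.0895). Whether changes differed between classes was tested for 5 pairs of classes, in 33 interaction tests of members for each comparison. With age edgeR called 0 of 33 (background 3.74%), with 7 at an unadjusted p under 0.05, and with AAV-B3GNT3 0 of 33 (background 1.56%), with 4. For Ccnd2 the age change in oligodendrocytes was below that in astrocytes by a difference of −0.92 (SE 0.28, adjusted p = 0.073).

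Ccnd1 rose with age in oligodendrocyte precursors, the dividing cells from which oligodendrocytes form. Young libraries had 50.6, 36.9 and 20.1 CPM. Aged AAV-EGFP libraries had 71.2, 76.5 and 85.5 CPM. The aged AAV-B3GNT3 libraries had 56.8, 39.4 and 48.9 CPM. All aged AAV-EGFP values lay above the other 6, and the other groups overlapped. The rise was 2.16-fold (log2 fold change 1.11, SE 0.24, adjusted p = 0.039, background 1.6%), and the difference with AAV-B3GNT3 was −0.69 (SE 0.24, adjusted p = 0.23). It was lost without aged AAV-EGFP replicate 2 (1.11, adjusted p = 0.16) or 3 (1.04, 0.13), without young AAV-EGFP replicate 2 (1.14, 0.12) or 3 (0.85, 0.12), and without any 1 of the aged AAV-B3GNT3 libraries (adjusted p = 0.052 to 0.064). With free RNA removed it was 1.125 (adjusted p = 0.077), and in classes from finer clusters 1.07 (adjusted p = 0.014).

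The precursors also held oligodendrocyte transcripts: all 6 oligodendrocyte markers were detected, and summed to 654 to 1265 CPM in young, 296 to 1247 in aged AAV-EGFP and 331 to 409 in aged AAV-B3GNT3 libraries. The finer type, with 2600 precursors, gave a rise of 1.05 (SE 0.24, adjusted p = 0.022), from 55.4, 40.1 and 21.6 CPM to 76.0, 79.0 and 87.8 CPM, and its call was lost without aged AAV-EGFP replicate 2 or 3 or young AAV-EGFP replicate 2 or 3 (adjusted p = 0.073 to 0.096). UMIs of the division genes Mki67 or Top2a were found in 32 of these precursors (1.23%), below the 2.44% of excitatory neurons, which do not divide and hold more UMIs per nucleus. At this depth, dividing precursors could not be told from background. Of the 527 precursors with a Ccnd1 UMI, 9 had a UMI of either gene.

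In microglia Ccnd1 had 31.2, 23.5 and 16.5 CPM in young, 20.1, 31.6 and 37.6 in aged AAV-EGFP and 11.4, 15.7 and 23.2 in aged AAV-B3GNT3 libraries. The groups overlapped, and neither difference passed (age 0.32, SE 0.38, adjusted p = 0.75; AAV-B3GNT3 −0.82, SE 0.38, adjusted p = 0.47).

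Cdk6 rose with age in pericytes, the contractile cells that wrap capillaries, and was higher in aged microglia without passing the test. In pericytes young libraries had 326, 212 and 215 CPM. Aged AAV-EGFP libraries had 353, 676 and 697 CPM. Aged AAV-B3GNT3 libraries had 367, 339.7 and 221 CPM, so that 1 of them exceeded the lowest aged AAV-EGFP library. The rise with age was 2.32-fold (log2 fold change 1.21, SE 0.27, adjusted p = 0.010), in a type in which 8.23% of genes were called. It was lost without aged AAV-EGFP replicate 3 (1.08, adjusted p = 0.067) or young AAV-EGFP replicate 2 (1.11, 0.070) or 3 (1.09, 0.062). The difference with AAV-B3GNT3 was −0.92 (SE 0.27, adjusted p = 0.11), and it passed without aged AAV-EGFP replicate 1 (−1.10, adjusted p = 0.0030).

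In microglia, the resident macrophages of the brain, Cdk6 had 167, 125 and 135 CPM in young libraries. Aged AAV-EGFP libraries had 188, 276 and 385 CPM. Values in aged AAV-B3GNT3 libraries were 231, 240.4 and 284 CPM. Every library of either aged group exceeded every young one, and the aged groups overlapped. With age the level was 1.99-fold higher (log2 fold change 0.996, SE 0.24, adjusted p = 0.067), in a class in which 0.227% of genes were called. Whether it passed changed with the setting, among them the nuclei that entered the class. In classes from finer clusters, with 2165 microglia in place of 2222, the change was 1.22 (adjusted p = 7.8e-04). These microglia held 4061566 UMIs in place of 4758114. The change also passed without aged AAV-EGFP replicate 1 (1.22, 0.016), with doublets kept (1.06, 0.049) and with no filter on low counts (1.02, 0.0014). The lowest value was 0.71 without aged AAV-EGFP replicate 3 (adjusted p = 0.22). The difference between the aged groups was −0.17 (SE 0.22, adjusted p = 0.84), and aged AAV-B3GNT3 against young gave 0.82 (SE 0.24, adjusted p = 0.27).

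In the same microglia, their own 6 markers summed to 1805 to 2871 CPM in young, 2792 to 3335 in aged AAV-EGFP and 2490 to 3107 in aged AAV-B3GNT3 libraries. All 6 oligodendrocyte markers were detected, at 440 to 718, 326 to 478 and 538 to 577 CPM in all. The 6 macrophage markers, all detected, summed to 409 to 1792, 632 to 730 and 496 to 803 CPM. For all 3 lists the young and aged AAV-EGFP ranges overlapped. Without nuclei that held a UMI of any macrophage marker, a setting chosen after the data were seen, the age change of Cdk6 was 1.03 (adjusted p = 0.086).

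**Figure D3:**
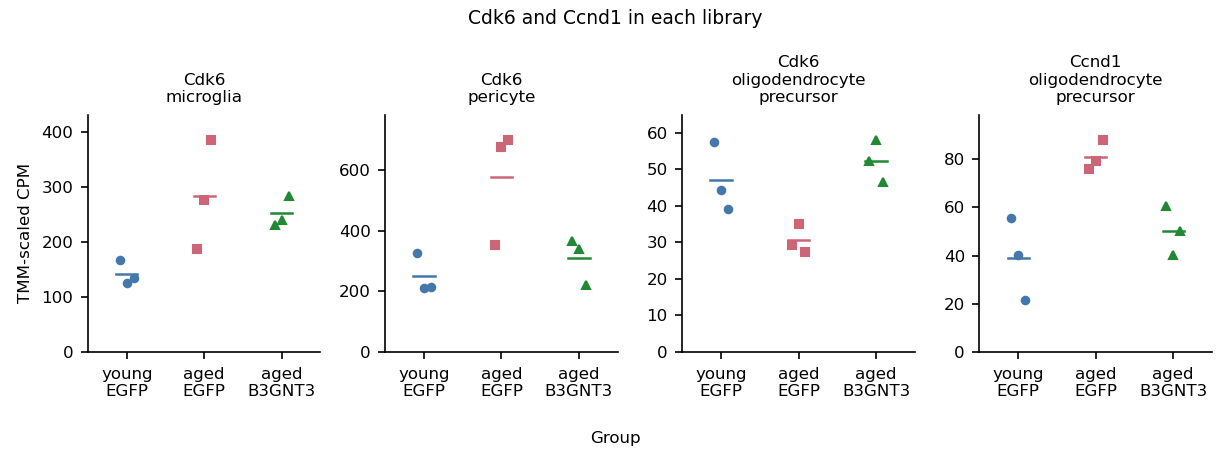
Cdk6 in microglia, pericytes and the finer type of oligodendrocyte precursors, and Ccnd1 in the same precursors, in TMM-scaled CPM (vertical axes, each from 0), for the 3 libraries of each group; short horizontal lines are group means. Cdk6 in pericytes and Ccnd1 in precursors passed the test with age, while Cdk6 in microglia (adjusted p = 0.067) and in precursors (adjusted p = 0.11) did not.

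In oligodendrocyte precursors Cdk6 was lowest in aged AAV-EGFP libraries, with 52.5, 40.7 and 38.3 CPM in young, 25.4, 33.7 and 26.6 in aged AAV-EGFP and 49.1, 54.4 and 45.2 in aged AAV-B3GNT3 libraries. The groups did not overlap in either comparison, but neither difference passed (−0.60, SE 0.20, adjusted p = 0.13, and 0.78, SE 0.20, adjusted p = 0.11). Oligodendrocytes had 1.68 to 3.98 CPM in all libraries, with a change of −0.30 with age (SE 0.38, adjusted p = 0.60). The age change in microglia was above that in oligodendrocytes by 1.25, which did not pass (SE 0.40, adjusted p = 0.12, edgeR interaction).

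The promoters of Cdk6 and Cdkn2a are shown for the letters TTTNNCGC, a loosened form of the E2F motif with its middle letters open. E2F factors are the target of the pathway these genes control. Among the 6 members with a promoter entry, only these genes held a match, and a match to so loose a form need not be an E2F motif. The pair of Cdkn2a promoters also start different proteins that these counts cannot separate. Each is 300 bases from RefSeq on GRCm38.p6, from 250 before to 50 after a transcription start, read 5′ to 3′ on the gene's strand, with capitals marking matches on either strand to TTTNNCGC.
Cdk6, chr5:3343643-3343942, plus strand: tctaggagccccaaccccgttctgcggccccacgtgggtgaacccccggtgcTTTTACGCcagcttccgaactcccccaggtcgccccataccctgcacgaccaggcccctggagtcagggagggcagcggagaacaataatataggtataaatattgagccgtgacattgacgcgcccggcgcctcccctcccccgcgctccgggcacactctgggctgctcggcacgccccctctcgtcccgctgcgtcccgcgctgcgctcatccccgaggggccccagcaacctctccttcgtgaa
Cdkn2a upstream promoter (p19Arf), chr4:89294570-89294869, minus strand: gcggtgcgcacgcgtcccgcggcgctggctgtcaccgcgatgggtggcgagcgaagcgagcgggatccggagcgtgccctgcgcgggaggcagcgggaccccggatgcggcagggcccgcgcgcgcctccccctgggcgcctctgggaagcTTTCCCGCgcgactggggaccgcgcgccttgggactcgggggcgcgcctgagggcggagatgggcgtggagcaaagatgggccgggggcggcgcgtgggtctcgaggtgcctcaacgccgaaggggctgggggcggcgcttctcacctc
Cdkn2a downstream promoter (p16Ink4a), chr4:89282143-89282442, minus strand: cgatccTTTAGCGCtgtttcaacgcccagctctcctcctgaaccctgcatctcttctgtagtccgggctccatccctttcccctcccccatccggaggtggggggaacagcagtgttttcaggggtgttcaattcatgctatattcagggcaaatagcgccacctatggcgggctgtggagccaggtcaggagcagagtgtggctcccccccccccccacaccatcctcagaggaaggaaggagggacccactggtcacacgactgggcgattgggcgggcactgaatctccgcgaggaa
Of the 10 promoters found for 6 members, these 3 held a match, against 5.17% of the 32851 promoters of the same length, and 7 of 10 held the GC box GGGCGG on either strand, against 35.7%. The matches describe letters, and no binding was measured. Ccnd1, Ccnd2 and Cdkn1c had no entry.

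Cdkn1a and Ccnd3 varied widely between libraries of a group. In brain endothelial cells Cdkn1a had 105, 171 and 282 CPM in young libraries. Aged AAV-EGFP libraries had 9.78, 427 and 574 CPM. Aged AAV-B3GNT3 libraries had 137, 187 and 176 CPM. A single aged AAV-EGFP library was below all 8 others while its companions were above them. Neither the age difference (log2 fold change 0.93, SE 0.61, adjusted p = 0.53) nor that with AAV-B3GNT3 (−1.05, SE 0.62, adjusted p = 0.54) passed. That library, replicate 1, had a Cdkn1a UMI in 1 of 48 endothelial nuclei, against 25 of 67 and 42 of 88 in the others, at median depths of 1904.5, 1587 and 1677.5 UMIs. Without it the differences were 1.47 (adjusted p = 0.0083) and −1.58 (adjusted p = 0.0073), and without aged AAV-EGFP replicate 3 they were 0.32 (adjusted p = 0.93) and −0.44 (adjusted p = 0.88). Leaving out other libraries gave no call. All 6 endothelial markers were detected, and summed to 7401 to 8323 CPM in young, 11718 to 14408 in aged AAV-EGFP and 8030 to 8742 in aged AAV-B3GNT3 libraries.

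The same library was lowest for Cdkn1a in 5 of 7 broad classes and lowest for Ccnd3 in 6 of 7. In oligodendrocytes Cdkn1a had 1.43, 4.06 and 25.1 CPM in young, 1.29, 16.8 and 37.8 in aged AAV-EGFP and 28.4, 34.8 and 17.8 in aged AAV-B3GNT3 libraries. No comparison there passed (age 1.04, SE 0.87, adjusted p = 0.41). The age value rested on single libraries: leaving out aged AAV-EGFP replicate 3 gave −0.017, leaving out replicate 1 of that group gave 1.58, and the change was 0.43, 0.65 and 2.85 without young AAV-EGFP replicates 1, 2 and 3 (adjusted p = 0.066 to 0.99). With no filter on low counts it passed (1.04, adjusted p = 0.0074), as did aged AAV-B3GNT3 against young (1.53, adjusted p = 5.4e-05). In both comparisons the libraries of the groups overlapped, and the size of the age change was the same as with the filter. In astrocytes Cdkn1a had 2.23, 3.48 and 3.13 CPM in young, 0.568, 11.3 and 19.6 in aged AAV-EGFP and 4.75, 10.8 and 4.57 in aged AAV-B3GNT3 libraries. The age change was 1.90 (SE 0.64, adjusted p = 0.064), and it was 2.40 (adjusted p = 0.0017) without aged AAV-EGFP replicate 1 and 1.119 (adjusted p = 0.39) without replicate 3. With no filter on low counts it passed (1.89, adjusted p = 1.3e-05), although the young and aged AAV-EGFP libraries overlapped. In upper-layer neurons Cdkn1a was lower with age, at 4.83, 4.37 and 7.22 CPM in young against 1.84, 2.62 and 3.23 CPM in aged AAV-EGFP libraries (−1.03, SE 0.32, adjusted p = 0.042). This call was lost in 9 of 17 other settings, among them leaving out any 1 aged AAV-EGFP library (adjusted p = 0.064 to 0.12) or DESeq2 (−1.05, adjusted p = 0.093). In inhibitory neurons Cdkn1a was 1.26 to 1.48 CPM in young, 1.25 to 2.35 in aged AAV-EGFP and 3.50 to 3.996 in aged AAV-B3GNT3 libraries. The last group lay above the other 6 libraries without passing (against young 1.44, SE 0.31, adjusted p = 0.056, and against aged AAV-EGFP 1.01, SE 0.29, adjusted p = 0.11). The difference from young passed with only the 2 groups compared in the fit (1.44, adjusted p = 0.047) and with no filter on low counts (1.43, adjusted p = 0.016).

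**Figure D4:**
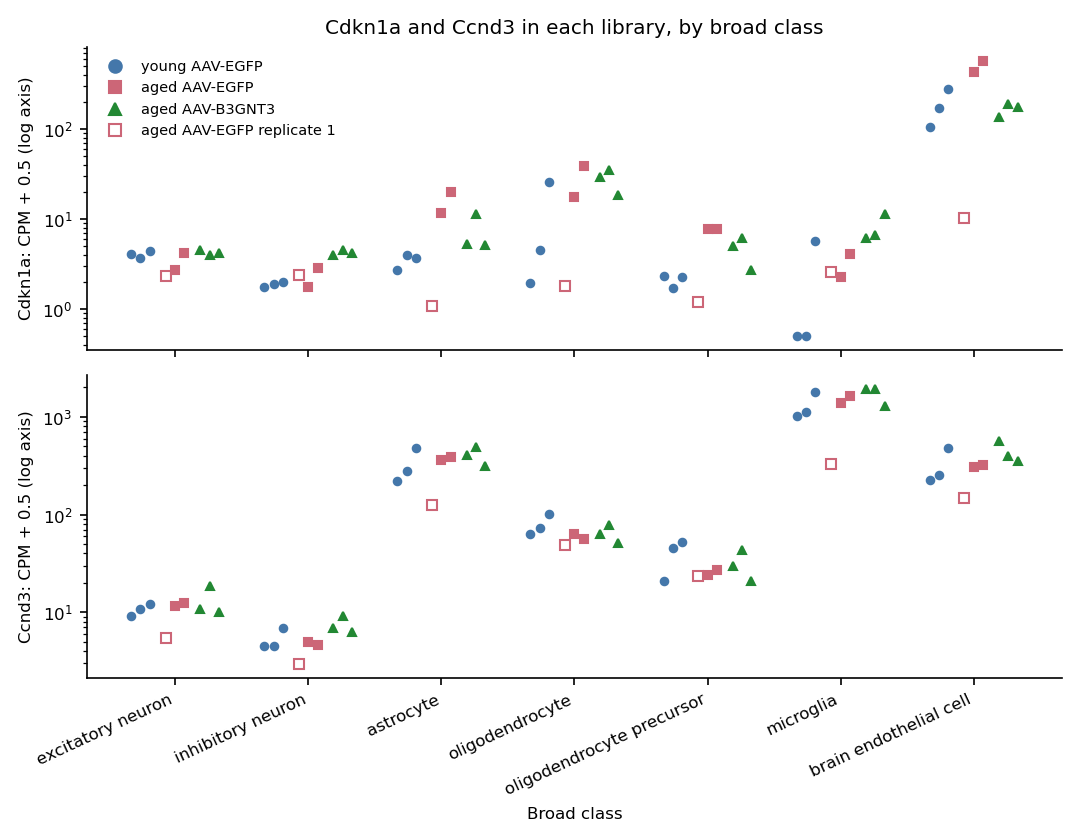
Cdkn1a (upper panel) and Ccnd3 (lower panel) in each library by broad class, as CPM + 0.5 on a log axis; values are TMM-scaled where the gene was tested in the class and unscaled for Cdkn1a in oligodendrocyte precursors and microglia. The open square is aged AAV-EGFP replicate 1, the lowest library for Cdkn1a in 5 of 7 classes and for Ccnd3 in 6 of 7.

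Ccnd3 was tested in all 7 broad classes and passed in 0 of them, with age or with AAV-B3GNT3. In microglia it had 1017 CPM, 1117 CPM and 1792 CPM in young libraries. It had 327, 1402 and 1638 CPM in aged AAV-EGFP and 1944, 1915 and 1300.0 CPM in aged AAV-B3GNT3 libraries. The groups overlapped (age −0.22, SE 0.39, adjusted p = 0.84; AAV-B3GNT3 0.61, SE 0.39, adjusted p = 0.62). The 327 CPM came from aged AAV-EGFP replicate 1, and the other libraries of that group lay within the young range. In oligodendrocytes the age difference was −0.48 (SE 0.20, adjusted p = 0.096), from 62.1, 73.3 and 99.9 CPM to 48.9, 62.7 and 55.8 CPM.

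Cdkn1b passed the test in 0 broad classes. In oligodendrocytes it had 37.5, 32.5 and 32.4 CPM in young, 29.98, 33.4 and 28.0 in aged AAV-EGFP and 31.6, 25.4 and 26.7 in aged AAV-B3GNT3 libraries (age −0.17, SE 0.15, adjusted p = 0.44). Its changes with age in the 6 broad classes tested lay between −0.37 and 0.02. Single libraries moved these values: without aged AAV-EGFP replicate 3 the change was −0.59 in excitatory neurons and −0.62 in microglia, without replicate 2 it was −0.01 in excitatory neurons, and without replicate 1 it was 0.38 in microglia, with adjusted p of 0.16 to 0.98. Cdkn1c, over all kept nuclei, had 0.377 ± 0.188 CPM in young, 0.681 ± 0.451 in aged AAV-EGFP libraries and 0.633 ± 0.133 in those with AAV-B3GNT3 (SD, n = 3), so the groups overlapped within their spread.

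Cdkn2a, the gene most often read as a mark of senescence, was found in 81 of 70310 nuclei. Its 3′ counts cannot tell p16Ink4a from p19Arf, which share their last exons. Young libraries held 1, 4 and 4 UMIs, aged AAV-EGFP libraries 8, 11 and 26, and aged AAV-B3GNT3 libraries 12, 12 and 10. As CPM over all kept nuclei this was 0.0592 ± 0.036 in young, 0.303 ± 0.200 in aged AAV-EGFP libraries and 0.265 ± 0.071 in those with AAV-B3GNT3 (SD, n = 3). Every aged library was above every young one, and the aged groups overlapped. With F as the statistic and all 280 ways to divide the libraries into 3 groups, the exact permutation p was 0.079, with 0.0036 the smallest it can give. Without aged AAV-EGFP replicate 3 the same exact test gave p = 0.011, and without any 1 of the other 8 libraries it gave 0.086 to 0.28.

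**Figure D5:**
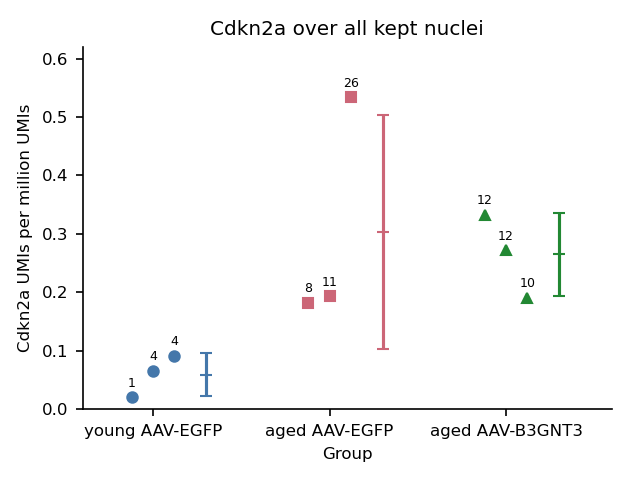
Cdkn2a CPM over all kept nuclei (vertical axis) in each library, with the number of Cdkn2a UMIs printed above each point; bars beside the points are mean ± SD (n = 3). The 3 young libraries lie between 0.0203 and 0.0913, below all 6 aged libraries.

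By cell type, oligodendrocyte precursors had the highest Cdkn2a level. There 23 of 2753 nuclei held a UMI (0.836%, exact 95% interval 0.530 to 1.25%) at a median of 4313 UMIs per nucleus. Excitatory neurons, at a median depth of 10575 UMIs, had it in 29 of 20679 nuclei (0.140%), and oligodendrocytes, at 1998 UMIs, in 5 of 20365 (0.0246%). The precursor counts were 0, 0 and 1 UMIs in young, 0, 4 and 10 in aged AAV-EGFP and 6, 2 and 4 in aged AAV-B3GNT3 libraries. Group means were 0.293, 3.21 and 3.52 CPM, and the test did not pass (exact permutation p = 0.34, adjusted p = 0.56 over 25 tests of members below the count filter). No UMI was found in 723 brain endothelial nuclei, at a median of 1879 UMIs per nucleus, which allows a share of nuclei with a captured UMI of up to 0.509%, or in 943 pericytes at a median of 1956 UMIs (up to 0.390%). These exact 95% intervals, including the one for the precursors, pool nuclei of all libraries. They cover counting error only and leave out the spread between mice. The upper bounds do not limit the share of nuclei that express the gene.

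A Cdkn1a UMI was present in 2166 nuclei and a Cdkn2a UMI in 81, and 4 nuclei held both. With so few Cdkn2a UMIs this count gives no measure of how often the genes are expressed together. The lowest unadjusted p of the 25 tests was shared by Cdkn2c in oligodendrocyte precursors, where group means were 0, 1.82 and 0.365 CPM on 10 UMIs, and Cdkn1a in microglia, where they were 1.70, 2.47 and 7.54 CPM on 20 UMIs (exact permutation p = 0.036 and adjusted p = 0.45 for both). None of the 25 passed after adjustment.

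The wider pathway was followed in lists chosen with earlier results of the same data known, so their counts are a description. Among kinase partners, E2F factors and the retinoblastoma family, 76 combinations of a gene and a broad class were tested, and 7 fell and 0 rose with age, a share near the 9.34% called in either direction over all genes. With AAV-B3GNT3 1 rose and 0 fell, against 2.82% called over all genes. With age, the median change of this list lay between −0.35 and −0.02 over the 7 classes, against −0.003 to 0.025 for all genes. With AAV-B3GNT3 it lay between 0.095 and 0.43, against −0.005 to 0.015 for all genes. These medians rest on few genes. The −0.35 came from microglia with 7 genes tested, and the next lowest was −0.24 in oligodendrocytes with 13. The 0.43 came from brain endothelial cells with 4 genes tested, and the next highest was 0.27 in astrocytes with 12. E2f3, an activating E2F factor, fell most in oligodendrocytes. There young libraries had 36.1, 36.3 and 30.3 CPM, aged AAV-EGFP libraries 13.4, 17.0 and 16.4 CPM, and aged AAV-B3GNT3 libraries 28.4, 31.3 and 23.0 CPM. The aged AAV-EGFP libraries were below the other 6 (age −1.13, SE 0.17, adjusted p = 0.0034; AAV-B3GNT3 0.81, SE 0.17, adjusted p = 0.021). The excitatory neuron markers in these oligodendrocytes, given above with Ccnd2, were also higher in young than in aged AAV-EGFP libraries, and their part in the E2f3 change was not tested. E2f3 also fell in excitatory neurons, from 70.3, 73.4 and 72.9 CPM to 57.6, 52.0 and 44.5 CPM (−0.49, adjusted p = 0.016), and in inhibitory neurons (−0.58, adjusted p = 0.048). Tfdp1, a binding partner of E2F factors, fell in astrocytes (−0.58, adjusted p = 0.033) and in excitatory neurons, from 53.7, 53.5 and 56.1 CPM to 41.3, 47.2 and 41.0 CPM (−0.33, adjusted p = 0.037).

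Among the other regulators of the cycle, 57 combinations were tested, with 1 rise and 1 fall with age, a share below the 9.34% called over all genes, and 2 falls with AAV-B3GNT3, near the 2.82% over all genes. The INK4 inhibitor Cdkn2d (p19Ink4d) was the rise: oligodendrocytes had 3.93, 6.09 and 6.07 CPM in young, 8.27, 11.5 and 11.0 in aged AAV-EGFP and 4.41, 5.80 and 3.61 in aged AAV-B3GNT3 libraries (age 0.96, SE 0.27, adjusted p = 0.026; AAV-B3GNT3 −1.17, SE 0.27, adjusted p = 0.024). It also fell with AAV-B3GNT3 in astrocytes (−1.78, SE 0.39, adjusted p = 0.021). Cul1, a scaffold of the ubiquitin ligase that degrades Cdkn1b, fell with age in excitatory neurons (−0.34, adjusted p = 0.041). Between aged AAV-B3GNT3 and young mice, Fbxo31, a ubiquitin ligase subunit, was higher in astrocytes (1.204, adjusted p = 0.045), as 1 of 57, near the 1.65% called over all genes in that comparison. Fbxo31 had 21.4, 20.7 and 27.8 CPM in young astrocytes. Aged AAV-EGFP libraries had 15.9, 54.4 and 58.2 CPM and aged AAV-B3GNT3 libraries 59.4, 48.8 and 51.1 CPM, so the aged groups overlapped.

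Of p53 and its targets, 89 combinations were tested, with 4 rises and 0 falls with age, a share below the 9.34% of all gene and class tests, and 2 falls with AAV-B3GNT3, near the 2.82% of all tests. Phlda3, an inhibitor of Akt, rose in oligodendrocytes from 8.75, 7.89 and 6.64 CPM to 11.6, 23.5 and 18.9 CPM (1.203, SE 0.26, adjusted p = 0.0089) and was 9.81, 8.51 and 7.09 CPM in aged AAV-B3GNT3 libraries (−1.10, SE 0.25, adjusted p = 0.024). Gadd45a, a stress sensor, rose in the same class (1.62, adjusted p = 0.048), with 2.14, 0.902 and 2.02 CPM in young and 1.29, 7.204 and 6.99 CPM in aged AAV-EGFP libraries, of which replicate 1 lay within the young range. The proapoptotic gene Bax rose in astrocytes (0.73, adjusted p = 0.019) and fell there with AAV-B3GNT3 (−0.71, adjusted p = 0.037). The median change of the list with age lay between −0.02 and 0.75 over the classes. The 0.75 came from brain endothelial cells with 7 genes tested, and the next highest was 0.21 in oligodendrocytes with 17.

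The list of secreted and nuclear proteins linked to senescence gave 5 rises and 0 falls with age in 46 combinations. This share was near the 9.34% called over all genes, and all 5 were the chromatin protein genes Hmgb1 or Hmgb2. The list does not set the direction in which a gene goes with senescence, so these rises are no measure of it. Hmgb2 rose in oligodendrocytes from 0.893, 1.13 and 1.44 CPM to 1.55, 17.0 and 8.32 CPM (2.98, SE 0.72, adjusted p = 0.014). Hmgb1 rose in the same class from 54.1, 53.2 and 56.3 CPM to 70.3, 89.6 and 91.7 CPM (0.62, SE 0.13, adjusted p = 0.0077). With AAV-B3GNT3 0 of 46 passed. Glb1, the lysosomal galactosidase used to stain senescent cells, was higher in aged AAV-B3GNT3 than in young excitatory neurons (0.50, adjusted p = 0.028), as 1 of 46, near the 1.65% called over all genes in that comparison. For replication and mitosis, 39 combinations were tested, and with age Mki67 rose (1.11, adjusted p = 0.045) and Ccnb1 fell (−0.96, adjusted p = 0.035), both in excitatory neurons. Over all classes this share was below the 9.34% of all gene and class tests, and in excitatory neurons it was 2 of 14, near the 14.2% of genes called in that class. Ccnb1 was also lower in aged AAV-B3GNT3 than in young excitatory neurons (−1.49, adjusted p = 0.017), as 1 of 39, near the 1.65% of all tests. Mki67 there went from 0.959, 2.07 and 1.64 CPM to 4.37, 3.04 and 2.80 CPM, with 1.41, 1.19 and 2.48 CPM in aged AAV-B3GNT3 libraries.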

How the data were processed

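The authors deposited raw UMI counts per gene and nucleus for each library, made with Cell Ranger on mm10; the submitters' notes name version 4.0.0 and the file headers 7.2.0. These versions differ by default in whether intronic reads are counted, and the setting is not given in the sources used here, so levels from nuclei may or may not include unspliced RNA. Nuclei with 200 to 5000 genes and at most 10% mitochondrial counts were kept, and predicted doublets were removed (0.8% per 1000 barcodes). The total was 47332047 to 79964605 UMIs per library. Nuclei were clustered on 2000 variable genes without the members (15 components, 20 neighbours, resolution 0.3, scanpy 1.11.5) and named from marker lists. Thresholds of the naming rule were set after clusters were seen. Clusterings run earlier at lower numeric precision depended on the processor and were replaced; they kept a small group of mixed nuclei out of microglia, and there Cdk6 passed with age. Counts were summed per library and class, filtered (filterByExpr, minimum count 10), TMM-scaled and tested with edgeR 4.0.16 (quasi-likelihood, all 3 groups in 1 fit, Benjamini-Hochberg adjustment over all genes of a class, threshold 0.05). Members below the filter were compared by an exact permutation test. edgeR was tested on simulated data. Each library is 1 mouse. The members and gene lists were chosen with earlier results of these data known. Named genes were the members, and at most 3 called genes per list and comparison. Alternatives were DESeq2 1.42.0, other scaling and filters, a replicate block and leaving out each library.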

Additional observations from a re-analysis of the deposited data

How the results depend on the processing

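Of 22 calls of members, 22 kept 1 direction in all alternatives, and 0 reversed. The calls were selected for passing and the alternatives reuse the same libraries, so a kept direction is no independent check. Broad classes and the finer types within them were both counted. Many of these calls lost the threshold when a library was left out, as given above. For the counts that follow, the shares called over all genes in the same settings are not given here. The counts therefore do not set the members apart from other genes. The number of members called with age in broad classes (3) was 9 with no filter on low counts, 1 with free RNA removed and 2 to 11 when a library was left out, with 11 without aged AAV-EGFP replicate 1. With AAV-B3GNT3 (3) it was 7, 1 and 0 to 5, with 5 without aged AAV-EGFP replicate 1, 0 without replicate 2, 1 without replicate 3, and 1 and 0 without aged AAV-B3GNT3 replicates 1 and 2. Between aged AAV-B3GNT3 and young mice (0) it was 4 with no filter, 1 with only those groups in the fit and 0 to 0 when a library was left out. In finer types the count with age (10) was 21 with no filter and 4 to 21 when a library was left out: 21, 5 and 4 without aged AAV-EGFP replicates 1, 2 and 3, and 6 and 5 without young AAV-EGFP replicates 2 and 3. With AAV-B3GNT3 (6) it was 16 with no filter, 2 with free RNA removed and 1 to 12 when a library was left out: 12 and 2 without aged AAV-EGFP replicates 1 and 2, and 2 and 1 without aged AAV-B3GNT3 replicates 1 and 2. Calls of a difference between classes (0) numbered 4 with no filter and 0 to 5 when a library was left out for age, with 5, 2 and 1 without aged AAV-EGFP replicate 1, aged AAV-B3GNT3 replicate 2 and young AAV-EGFP replicate 3, and 1 and 0 to 1 for AAV-B3GNT3, with 1 without aged AAV-EGFP replicate 3. The exact p for Cdkn2a (0.079) was 0.018 with no upper limit on genes and 0.011 to 0.28 when a library was left out. The causes were not tested.

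Replicate numbers name different mice, and the labels give no pairing or batch. Correlations between same-numbered libraries ran from −0.256 to 0.296. Their class medians were −0.058 to 0.048, against −0.044 to 0.030 for libraries of other numbers. Values this weak cannot decide whether same-numbered libraries shared a batch, which was not tested. With a replicate block 3 members were called with age, 3 with AAV-B3GNT3 and 0 between aged AAV-B3GNT3 and young mice in broad classes, and 11 and 8 in finer types. Depth limits Cdkn1c, Cdkn2a and Cdkn2c, with 247, 88 and 179 UMIs in all.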
